A study of Drosophila melanogaster with 82 samples.

Results

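The messages carried by tagged ribosomes of the fly gut were compared between restricted and rich food. The members are the 12 arrays whose titles name the gut, of 82 arrays in the series, with 1 array per pool and 6 pools of flies on restricted food (DR, 0.5% yeast extract) and 6 pools on rich food (AL, 5% yeast extract). The series covers 7 tissues of female Drosophila melanogaster on both foods and asks whether tissues respond to nutrients in their own ways. Both gut groups had the genotype +/+; MYOIA-GAL4/+; UAS-RpL13A-His6FLAG/+, were 13 days old, had spent 10 days on their food, and were pooled at about 100 flies, so that food was the labelled difference between them. Whole flies were homogenized, and ribosomes holding the FLAG-tagged RpL13A were pulled down with antibody beads. The tag is made where the MYOIA-GAL4 driver is active, and whether the driver's activity changed with food, or RNA of other cells of the homogenate was carried over, was not tested. None of the 46 marker genes listed for the gut and for other cell types could be matched by name on the array, so the tissue label was not checked against its markers.

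The absorptive cells of the fly midgut, the enterocytes, take up the products of digestion and are large cells with many copies of the genome. They rest on a basement membrane, a sheet of laminins and collagens, and are shaped by a spectrin skeleton beneath the plasma membrane. In these cells, as elsewhere, amino acids act on growth and translation through the kinase complex TORC1, which the GATOR complexes switch on and off. Pulling down a tagged ribosomal protein from chosen cells gives the messages bound to ribosomes, which depend both on how much of a message is present and on how much of it is being translated.

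The array reads 16637 transcripts, nearly all with 8 probes each, and a level here is the mean log2 intensity of a transcript's probes. The random-sequence control probes give the background. Their 95th percentile averaged 7.22 ± 0.43 (SD, n = 6) on the DR arrays and 7.46 ± 0.29 (n = 6) on the AL arrays, on the log2 scale. Sorted from dimmest to brightest, the deposited probe values of the 12 gut arrays differed by at most 0.0379 from those of the first gut array, so that a change is measured relative to the other probes and a shift of all messages at once cannot be seen. In bulk pulldowns such as these, fewer cells of a type and less RNA per cell cannot be told apart.

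The 6 DR pools varied more among themselves than the AL pools. The median SD of a transcript was 0.253 across the DR pools and 0.170 across the AL pools, on the log2 scale. DR pools 1, 2 and 6 lay on one side of the leading axis of variation within the groups and DR pools 3, 4 and 5 on the other, and this axis held 42.3% of the variance within groups. Across transcripts, DR pool 5 correlated with DR pool 1 at a Spearman rho of 0.968 and with the AL pools at up to 0.984, while the AL pools correlated with each other at 0.988 to 0.995. Every gut array was closer to the other gut arrays than to any array of another tissue, the nearest being fat body arrays at up to 0.945. Gut calls of named messages that depend on DR pools 1 and 2, which had the lowest array weights (0.321 and 0.304), are given below with and without them. Differences between the gut and other tissues were not refitted without these pools.

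DR and AL arrays also differed in 3 of 6 summary measures of signal. The control probes had a median of 4.98 ± 0.18 on the DR arrays and 5.24 ± 0.14 on the AL arrays (log2, adjusted p = 0.0476 over the 6 measures, exact two-sided permutation test). The median transcript level was 9.94 ± 0.09 in DR and 10.05 ± 0.04 in AL (adjusted p = 0.0455, exact permutation test), and the gap between bright and dim transcripts was 5.00 ± 0.18 in DR and 5.16 ± 0.03 in AL (adjusted p = 0.0455, exact permutation test). The rise of signal along the transcript, the 95th percentile of the control probes and the number of transcripts above it did not pass this test (adjusted p = 0.0877, 0.273 and 0.161, exact permutation tests). A fit that holds the rise of signal along the transcript as a covariate called 5502 transcripts, of which 4753 were also called in the main fit. Quantile normalization over all arrays, which gives them the same distribution of transcript levels, called 4399, of which 4250 were shared. Cyclic loess over the gut arrays called 6470, of which 5177 were shared. The part of these measures in the results was not tested further.

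Food changed the level of 5969 transcripts in the gut, 35.9% of all tested (limma, adjusted p below 0.05), with 3006 higher on DR food (18.1%) and 2963 lower (17.8%). Most of these changes were small. Of the called transcripts 2916 differed by at least 1.5-fold, 858 by at least 2-fold, 96 by at least 4-fold and 25 by at least 8-fold. The balance between the directions moved with size: 1506 rises and 1410 falls passed 1.5-fold, 340 rises and 518 falls passed 2-fold, and 4 rises and 21 falls passed 8-fold. The median change was 0.59 among the called rises and -0.57 among the called falls, against 0.02 over all transcripts (log2, DR minus AL). The DR and AL pools did not overlap at all for 3462 transcripts (20.8%), of which 1827 were higher (11.0%) and 1635 lower (9.83%) on DR food. Of these separated transcripts 3127 also passed the test.

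A few messages crossed the background altogether. Transcripts above the control probes numbered 10840 in every DR pool, 10884 in every AL pool and 10464 in all 12 pools, while 3095 stood above them in no pool. There were 27 transcripts above the control probes in every DR pool and in no AL pool, of which 25 were called higher on DR food. Another 22 were above them in every AL pool and in no DR pool, and all 22 were called lower. Both sets were picked on the levels of these same pools, so that their calls follow in large part from the selection.

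The share of transcripts called depended on how bright the transcript was. Ordered by mean level in the gut and cut into 10 equal classes, 4.15% passed the test in the dimmest class, 59.8% in class 5 and 39.5% in class 10, the brightest. Rises outnumbered falls in class 4, with 533 against 299, and falls outnumbered rises in class 6, with 543 against 296. In class 10, 382 rose and 276 fell, and called changes there had a median size of 0.38 on the log2 scale, against 0.73 in class 4. The median change of all transcripts was 0.24 in class 4 and -0.16 in class 6. The arrays of the foods also differed in their gap between bright and dim transcripts, whose part in this pattern was not tested.

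**Figure D1:**
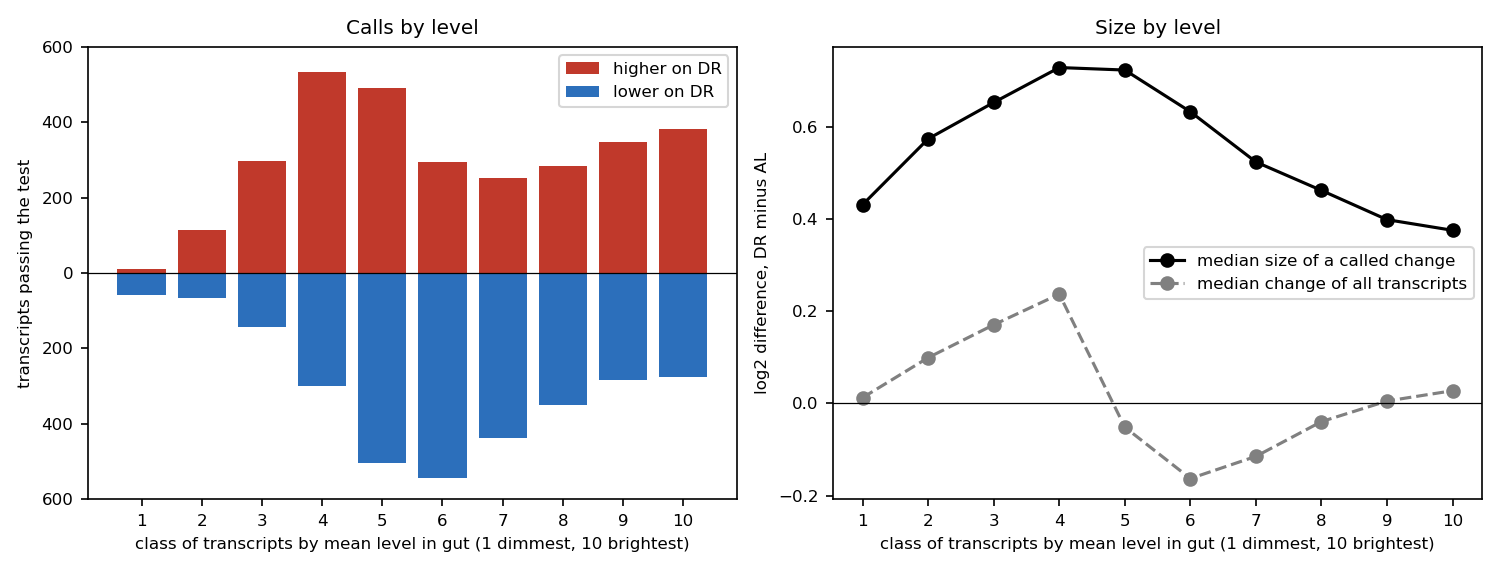
Left, the number of transcripts called higher (red, upward) and lower (blue, downward) on DR food in each of 10 equal classes of transcripts ordered by mean level in the gut, class 1 the dimmest. Right, the median size of a called change and the median change of all transcripts (log2, DR minus AL) in the same classes; called changes were largest in classes 4 and 5, and the median change of all transcripts was 0.24 in class 4 and -0.16 in class 6.

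Gene names could be given to 44 transcripts, 16 with 1 gene and 28 with several. In 36 of the 44 the gene table tags the message as carrying a reading frame upstream of the main one, and 28 have more than 1 frame listed as a gene of its own. A message with several genes is written here with the upstream frame's gene before the slash and the main frame's gene after it, as in Sws1/Rad1. A probe reads the message and says nothing of which frame is translated. Of the 44 messages, 7 rose and 7 fell on DR food and 30 did not pass the test, so that 31.8% were called, close to the 35.9% of all transcripts. All but 2 of the 44 were above the control probes in all 12 pools, the exceptions being CG31178 and CG42512/CG32573. CG31178 was above the control probes in no gut pool, and CG42512/CG32573 in no DR pool and in 1 AL pool, so that neither has a measured fold. The fitted change of CG42512/CG32573 was -0.40 ± 0.23 (adjusted p = 0.172), with adjusted p-values of 0.0429 on the gut arrays alone, 0.0166 with cyclic loess and 0.0436 with array weights. That of CG31178 was -0.22 ± 0.13 (adjusted p = 0.185). The median change over the 44 was -0.05 on the log2 scale.

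**Figure D2:**
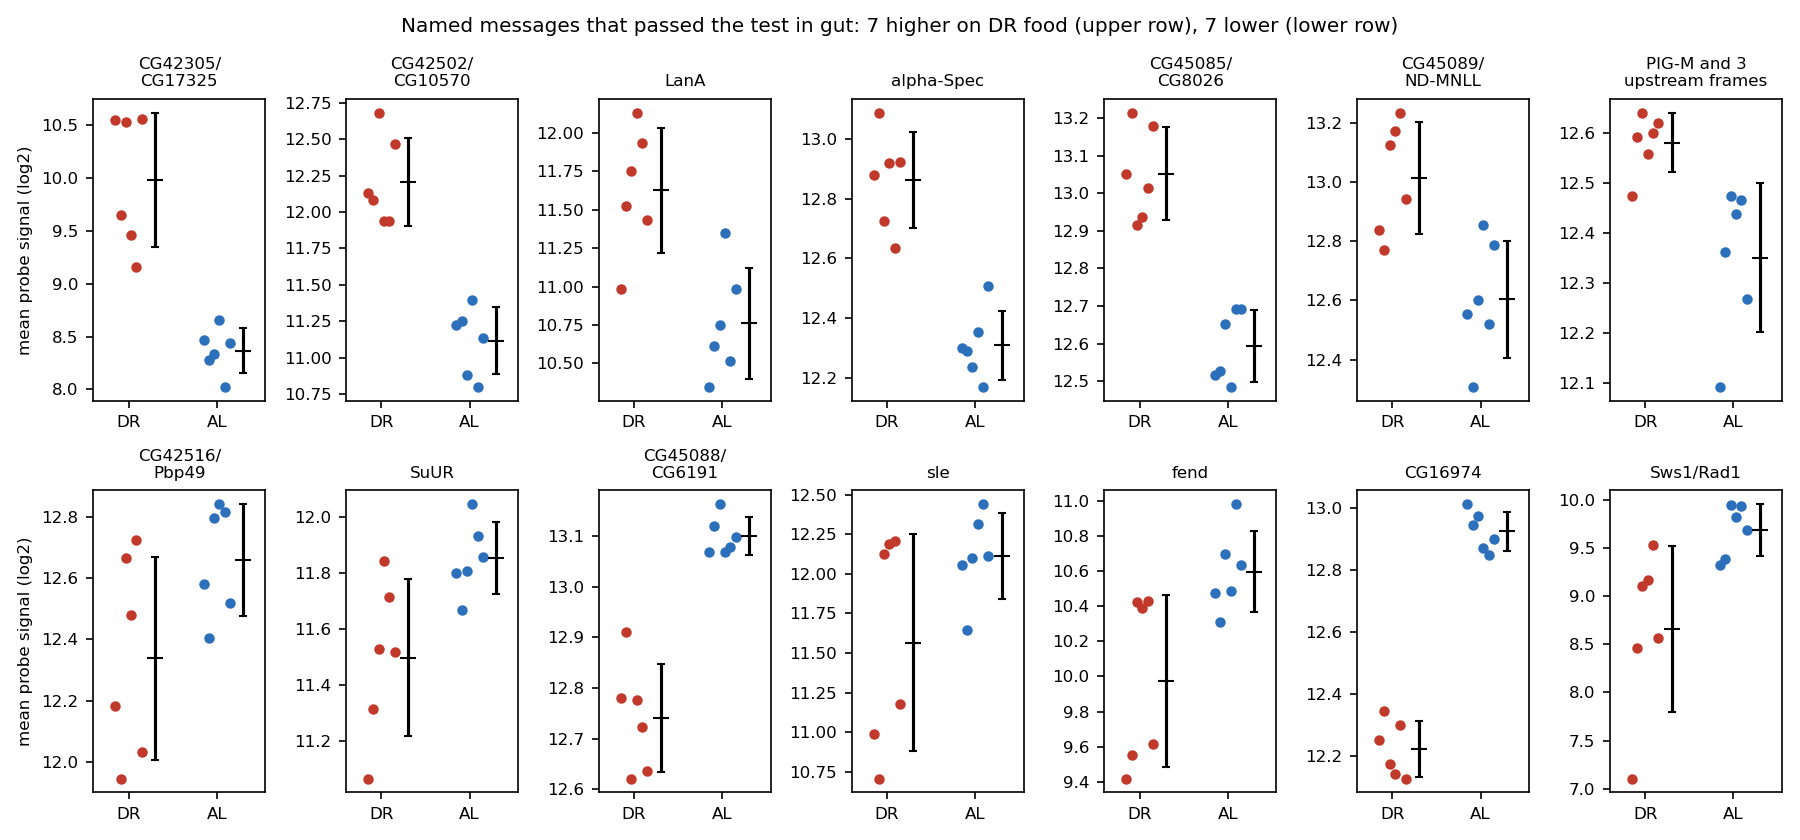
Mean probe signal (log2) of the 14 named messages that passed the test, with 1 point per pool, DR pools in red at left and AL pools in blue at right, and black bars for the mean and SD of each group of 6 pools. Each panel has its own axis, which does not start at 0. DR and AL pools do not overlap for CG42305/CG17325, CG42502/CG10570, alpha-Spec, CG45085/CG8026, CG45088/CG6191 and CG16974.

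LanA and alpha-Spec rose on DR food. LanA, a chain of the laminins of the basement membrane, was measured at 10.98 to 12.13 (median 11.64) in the DR pools and at 10.35 to 11.35 (median 10.68) in the AL pools, on the log2 scale. All DR pools except DR pool 1 lay above every AL pool, and DR pool 1 lay inside the AL range. The rise was 0.87 ± 0.24 (SE), or 1.82-fold, with limma's adjusted p = 0.00275, and all 8 probes were higher on DR food by 0.52 to 1.27. alpha-Spec, a subunit of the spectrin skeleton, had a lowest, median and highest level of 12.64, 12.90 and 13.09 in DR pools, against 12.17, 12.30 and 12.51 in AL pools. Every DR pool of alpha-Spec was above every AL pool, and the rise was 0.55 ± 0.15 (adjusted p = 0.00172). These are 2 of 18 genes in a list for basement membrane and membrane skeleton, and both were called higher, where 18.1% of all transcripts were. The list was drawn up with earlier results of these arrays known, so that the count is not independent evidence of direction. Tested against a minimum change of 1.2-fold rather than against no change, LanA had an adjusted p of 0.0537 and alpha-Spec of 0.146.

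CG45085/CG8026 and CG45089/ND-MNLL rose on DR food. CG45085/CG8026, whose main frame encodes a member of the mitochondrial carrier family, was at 12.91 to 13.21 (median 13.03) in DR pools and at 12.48 to 12.69 (median 12.59) in AL pools. The groups were fully apart, all 8 probes were higher on DR food, and the rise was 0.46 ± 0.09 (adjusted p = 1.72e-05). CG45089/ND-MNLL, which holds a subunit of respiratory complex I, reached 12.77 to 13.23 (median 13.03) in DR pools and 12.31 to 12.85 (median 12.58) in AL pools. Its groups overlapped slightly, with a rise of 0.41 ± 0.13 (adjusted p = 0.0123) and all 8 probes higher. That call was lost when only the probes earlier along the transcript were used (0.30, adjusted p = 0.0796) and when the rise of signal along the transcript entered the fit (0.29, adjusted p = 0.0921), and against a minimum of 1.2-fold the adjusted p was 0.489. The 8 probes of CG45089/ND-MNLL lie at positions 1 to 25 of the message, so that its earlier and later probes are only a few bases apart. CG42497/Tim10, with a chaperone for protein import into mitochondria, changed by 0.09 ± 0.13 (adjusted p = 0.640).

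The GPI-anchor pathway, which attaches proteins to the outer face of the membrane, is represented by a pair of messages. The message that holds PIG-M, a mannosyltransferase of the pathway, together with the upstream genes CG42379, CG42380 and CG42381, had levels of 12.47 to 12.64 (median 12.60) in DR pools and 12.09 to 12.47 (median 12.40) in AL pools. The ranges met at their edges, and the rise of 0.23 ± 0.07 was the smallest that passed among the named messages (adjusted p = 0.00439). For CG42379/CG42380/CG42381/PIG-M, 7 of 8 probes were higher on DR food, and the single-probe changes ran from -0.03 to 0.66. With the rise of signal along the transcript in the fit its adjusted p was 0.0510. Tcs6/PIG-P, whose main frame encodes a subunit of the first transferase of the pathway, changed by -0.14 ± 0.14 (adjusted p = 0.484).

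The largest rises with a name belong to messages whose genes carry a CG number alone. CG42305/CG17325 was at 9.16 to 10.56 (median 10.09) in DR pools and at 8.02 to 8.66 (median 8.39) in AL pools, a rise of 1.62 ± 0.20 or 3.07-fold (adjusted p = 4.39e-10). No DR pool came down to an AL pool, although the DR pools spread widely, with DR pools 1, 3 and 6 near 10.5 and the others below 9.7. CG42502/CG10570 was at 11.94 to 12.68 (median 12.10) in DR pools and at 10.80 to 11.40 (median 11.18) in AL pools. This rise of 1.09 ± 0.12, or 2.13-fold, also left the groups apart (adjusted p = 1.97e-11). For both messages 7 of the 8 single probes separated the foods on their own. These probes lie close together, at positions 1 to 122 in CG42305/CG17325 and 2 to 163 in CG42502/CG10570, and neighbours may read nearly the same stretch. Only 1.04% of all transcripts changed by as much as CG42305/CG17325, in either direction, and 3.99% by as much as CG42502/CG10570.

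CG16974 fell with little spread between the pools. Its levels were 12.13 to 12.35 (median 12.21) in DR pools and 12.85 to 13.01 (median 12.92) in AL pools, a change of -0.70 ± 0.09 or a 1.63-fold fall (adjusted p = 3.9e-10). Each of its 8 probes by itself put every DR pool below every AL pool. CG45088/CG6191 was at 12.62 to 12.91 (median 12.75) in DR pools and at 13.07 to 13.16 (median 13.09) in AL pools, again with no overlap. Its fall was 0.36 in size (change -0.36 ± 0.13, adjusted p = 0.0196), and all 8 probes were lower. With a quantile normalization over all arrays the adjusted p of CG45088/CG6191 was 0.0723.

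Sws1/Rad1 showed the largest fall with a name. Rad1, its main frame, is a part of the sliding clamp that marks damaged DNA for the checkpoint. Its level was 7.10 in DR pool 1, 8.47 in DR pool 2, 9.10 in DR pool 3, 9.17 in DR pool 4, 9.53 in DR pool 5 and 8.57 in DR pool 6, against 9.33 to 9.95 (median 9.76) in the AL pools. Every DR pool was below the AL mean, one of them inside the AL range. The change was -1.03 ± 0.24, a 2.04-fold fall (adjusted p = 0.000444), and all 8 probes were lower, with changes of -1.49 to -0.54, although no single probe separated the foods. Without DR pools 1 and 2 the change of Sws1/Rad1 was -0.59, with an adjusted p of 0.0542.

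The fall of 4 further messages differed greatly between DR pools. In fend, DR pools 1, 2 and 6 stood at 9.42, 9.56 and 9.62, DR pools 3, 4 and 5 at 10.43, 10.39 and 10.43, and the AL pools at 10.31 to 10.98 (median 10.56). In sle, named for slender lobes and encoding a nucleolar protein, DR pools 1, 2 and 6 stood at 10.99, 10.71 and 11.18, DR pools 3, 4 and 5 at 12.12, 12.19 and 12.21, and the AL pools at 11.65 to 12.44 (median 12.10). For sle, then, 3 DR pools were above the AL mean and 3 were below every AL pool. CG42516/Pbp49, with a subunit of the complex that binds promoters of small nuclear RNA genes, had 12.18, 11.95 and 12.03 in DR pools 1, 2 and 6, then 12.67, 12.48 and 12.72 in DR pools 3, 4 and 5, and 12.40 to 12.84 (median 12.69) in AL pools. SuUR, which keeps parts of the genome under-replicated in cells with many genome copies, was at 11.07 to 11.85 (median 11.53) in DR pools and 11.67 to 12.05 (median 11.83) in AL pools. The DR values of SuUR were all below the AL mean and overlapped the AL range in 2 pools.

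Changes of these 4 messages were -0.62 ± 0.18 for fend (adjusted p = 0.00532), -0.55 ± 0.21 for sle (adjusted p = 0.0323), -0.32 ± 0.11 for CG42516/Pbp49 (adjusted p = 0.0196) and -0.35 ± 0.13 for SuUR (adjusted p = 0.0247). These SEs come from the fit of all arrays. On the gut arrays alone the adjusted p was 0.131 for sle and 0.0992 for CG42516/Pbp49, while fend and SuUR kept their calls. With array weights none of the 4 passed (adjusted p = 0.0552 for fend, 0.393 for sle, 0.172 for CG42516/Pbp49 and 0.0708 for SuUR). None of the 4 kept its call without DR pools 1 and 2, with changes of -0.38 for fend, -0.19 for sle, -0.18 for CG42516/Pbp49 and -0.20 for SuUR. Single pools sufficed for 3 of them. The call for sle was lost without DR pool 1 (-0.43), 2 (-0.37) or 6 (-0.47) and without AL pool 4 (-0.50) or 5 (-0.48). For CG42516/Pbp49 it was lost without DR pool 1 (-0.29), 2 (-0.24) or 6 (-0.26) and without AL pool 4 (-0.28) or 5 (-0.29), and for SuUR without DR pool 1 (-0.27) or 2 (-0.32) and without AL pool 4 (-0.32). All of these changes stayed below 0.

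Neither mio nor Wdr24 passed the test in the gut. Both belong to the GATOR2 complex upstream of TORC1, and they were the 2 genes measured by name from a list of 24 for TORC1 and GATOR. The levels of mio were 11.53 to 11.72 (median 11.57) in DR pools and 11.46 to 11.61 (median 11.57) in AL pools, nearly the same span. Its change was 0.03 ± 0.12 (adjusted p = 0.865). Wdr24 was at 10.50 to 11.14 (median 10.99) in DR pools and at 10.90 to 11.28 (median 11.18) in AL pools, a change of -0.22 ± 0.12 (adjusted p = 0.157), with all 8 probes lower.

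Fatp1, a fatty acid transport protein, was at 13.18 to 13.55 (median 13.34) in DR pools and at 13.26 to 13.45 (median 13.30) in AL pools. Fatp1 thus changed by 0.02 ± 0.16 (adjusted p = 0.934). NaPi-III, a phosphate transporter, spanned 11.63 to 13.07 (median 12.62) in DR pools and 12.16 to 12.88 (median 12.69) in AL pools, and changed by -0.09 ± 0.20 (adjusted p = 0.763). Its DR pools split like those of sle, with 12.06, 11.63 and 12.29 in DR pools 1, 2 and 6 and 12.96, 13.05 and 13.07 in DR pools 3, 4 and 5. DR pools 1 and 2 were thus below every AL pool and DR pools 3, 4 and 5 above every AL pool.

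Of 4 chromatin genes measured by name from a list of 16, SuUR fell and 3 did not pass. HDAC3, a histone deacetylase, was at 10.80 to 11.20 (median 11.03) in DR pools and at 11.18 to 11.34 (median 11.23) in AL pools. Its change of -0.23 ± 0.10 had an adjusted p of 0.0727, and passed the test without DR pool 5 (-0.26, adjusted p = 0.0445). kis, a chromatin remodeller, changed by 0.10 ± 0.10 (adjusted p = 0.481). His4r, a histone H4 gene, changed by 0.10 ± 0.09 (adjusted p = 0.405), and its probes may also read near-identical histone copies. moi/Tgs1, which joins a telomere-capping protein to an enzyme that trimethylates RNA caps, changed by -0.30 ± 0.13 (adjusted p = 0.0554). It passed without DR pool 4 (-0.33) or 5 (-0.37) and without AL pool 2 (-0.33).

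The ubiquitin list holds 20 genes, of which Uba1 and rdx were measured by name and neither passed. Uba1, the enzyme that activates ubiquitin, was at 13.94 to 14.21 in DR pools and 13.95 to 14.14 in AL pools and changed by 0.01 ± 0.06 (adjusted p = 0.888). rdx, an adaptor of Cul3 ubiquitin ligases, changed by -0.18 ± 0.13 (adjusted p = 0.299). lmgA/lmgB, which includes a subunit of the anaphase-promoting complex, changed by -0.29 ± 0.13 (adjusted p = 0.0708). It passed without DR pool 3 (-0.36), 4 (-0.34) or 5 (-0.37) and without AL pool 2 (-0.34).

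A further 8 messages with several genes did not pass the test. CG42374/Mettl5, with a methyltransferase of ribosomal RNA, changed by -0.08 ± 0.13, and CG42455/vnc, with the catalytic subunit of an N-terminal acetyltransferase, by 0.03 ± 0.15. Polr3K/Tcs1, joining a subunit of RNA polymerase III to a tRNA-modifying enzyme, changed by -0.03 ± 0.18. Tfb5/CG31917, with a subunit of TFIIH, changed by -0.32 ± 0.24 and Rpp14a/CG7950, with a subunit of RNase P, by 0.25 ± 0.17. All 8 probes of Rpp14a/CG7950 were higher on DR food, and its adjusted p was 0.268 in the fit of all arrays, 0.0239 on the gut arrays alone, 0.00600 with cyclic loess and 0.0136 with array weights. CG42496/Ppcdc, with an enzyme of coenzyme A synthesis, changed by -0.16 ± 0.07 and passed when DR pool 5 was left out (-0.21, adjusted p = 0.0270). Mocs2A/Mocs2B, which holds both subunits of molybdopterin synthase, changed by -0.22 ± 0.18, and CG33672/Mvk, with mevalonate kinase, by -0.09 ± 0.14. The adjusted p-values of these 8 messages in the fit of all pools ran upward from 0.0803 (CG42496/Ppcdc). The remaining 7 messages above the control probes, CG42375/CG9288, Muted/CG7071, CG42306/Gint3, Dpm2/CG12016, CG42488/CG5116, CG42372/CG30100 and CG33995/CG44000/CG44001, changed by -0.09 (CG42375/CG9288) to 0.13 (CG33995/CG44000/CG44001), and none passed. CG42488/CG5116 had an adjusted p of 0.246, which was 0.0325 after quantile normalization over all arrays and 0.0408 with array weights.

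**Figure D3:**
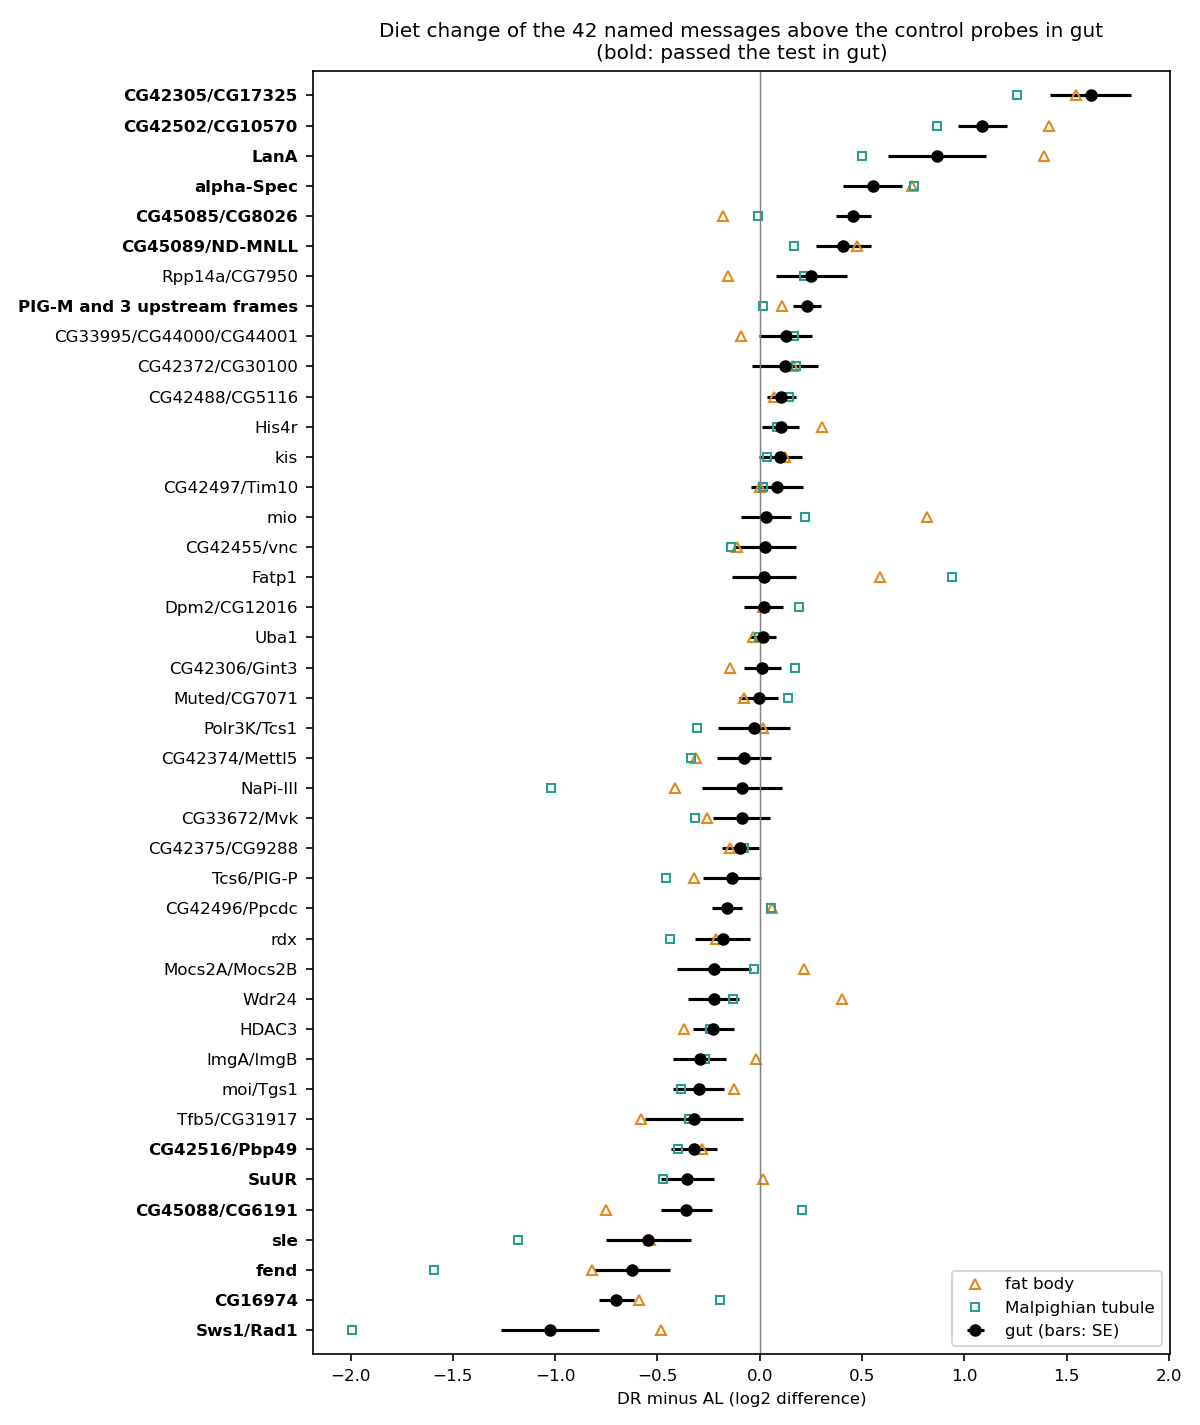
Change on DR food (log2, DR minus AL) of the 42 named messages above the control probes in the gut, ordered by size, with gut in black and bars for the SE. Fat body (triangles) and Malpighian tubule (squares) are given beside each gut value; names in bold passed the test in the gut. CG45085/CG8026 lies above 0 in the gut alone of these 3 tissues, and mio, Fatp1 and Wdr24 lie further right in fat body than in gut.

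Single probes of a transcript start at different positions of the same message, and they mostly went the same way. In some messages they lie only a few bases apart, as in CG45089/ND-MNLL at positions 1 to 25, and may read nearly the same stretch. Of the 5964 called transcripts with 8 probes, 4766 (79.9%) had all 8 probes on one side, against 1727 of 10652 transcripts that were not called (16.2%). The share was 95.3% (818 of 858) among called transcripts with at least a 2-fold change. Probes of a transcript are read from the same 12 amplified samples and are not replicates. A call is made on the mean of these same 8 probes. Their agreement in called or larger changes thus follows in part from the selection and is no independent evidence for the calls. Among the 14 named calls, 12 had all 8 probes on one side, and the PIG-M message and CG42516/Pbp49 had 1 probe each on the other side.

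**Figure D4:**
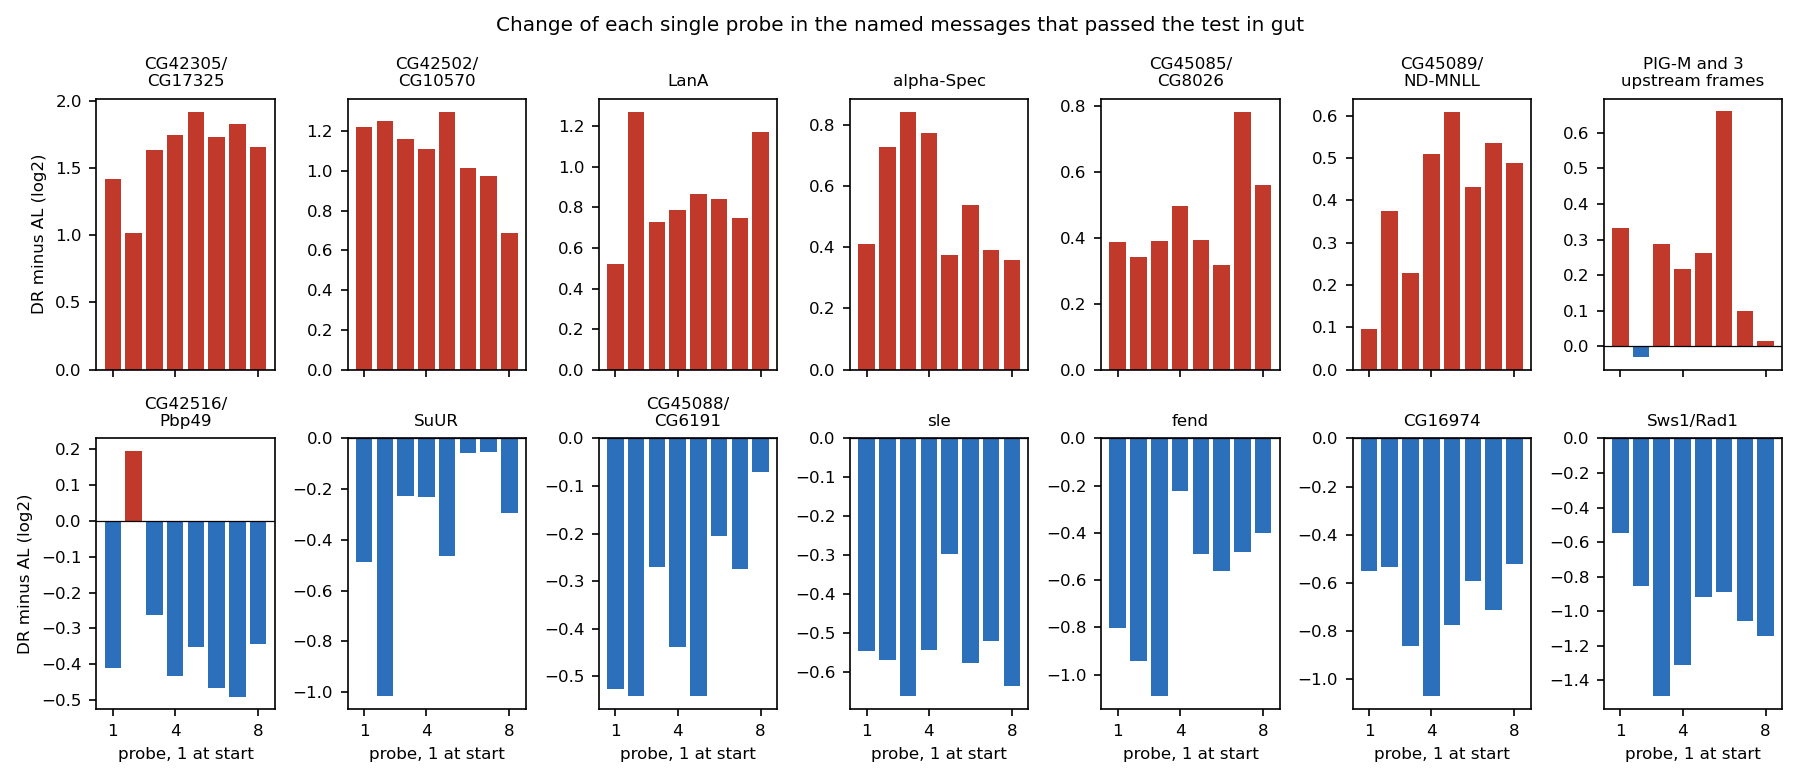
Change on DR food (log2, DR minus AL, means of 6 pools each) of each single probe of the 14 named messages that passed the test, with probe 1 nearest the start of the transcript. Red bars are higher and blue bars lower on DR food; all bars point one way apart from 1 probe of the PIG-M message and 1 of CG42516/Pbp49.

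The extremes of the gut response lie among transcripts with no gene name in the table used. FBtr0082625 was at 11.91 to 13.22 (median 12.53) in DR pools and at 8.11 to 9.86 (median 9.06) in AL pools, a rise of 3.60 ± 0.25 or 12.1-fold (adjusted p = 6.43e-20). FBtr0087907 was at 11.51 to 12.22 (median 11.82) in DR pools and at 8.30 to 8.91 (median 8.63) in AL pools, a rise of 3.23 ± 0.21 or 9.40-fold (adjusted p = 3.05e-21). In both, every one of the 8 probes separated the foods. FBtr0089324 was above the control probes in no DR pool, at 5.77 to 6.19, and stood at 13.43 to 13.62 in AL pools. FBtr0089326 likewise was at 5.51 to 6.28 in DR pools and at 13.14 to 13.35 in AL pools. Measured against the background of the DR arrays, they were at least 80.5-fold and at least 64.4-fold lower on DR food (adjusted p = 3e-33 and 1.2e-35). The same transcripts were called lower on DR food in all 6 other tissues. In tubule neither was above the control probes in any DR pool, and in fat body each was in 3 of 6 DR pools, so that no size is given there. In germ line and muscle, where every pool of both foods was above them, the changes were -3.70 and -5.84 for FBtr0089324 and -3.66 and -5.63 for FBtr0089326 (log2).

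The gut response shared most of its direction with the other tissues. Of the 5969 gut calls, 3310 (55.5%) were also called the same way in fat body, 3520 (59.0%) in Malpighian tubule, 3454 (57.9%) in germ line, 3155 (52.9%) in heart, 3182 (53.3%) in muscle and 4110 (68.9%) in neurons. As a share of the other tissue's own calls these are 52.9%, 53.1%, 29.3%, 36.3%, 34.7% and 37.4% in the same order. Of the 16637 transcripts, 6256 were called in fat body, 6624 in tubule, 11807 in germ line, 8687 in heart, 9162 in muscle and 10977 in neurons. Overlaps with the gut calls in either direction, and the number called in the gut alone, depend on these totals. Calls in opposite directions were fewest with the tubule, at 203, and most with the germ line, at 801, which also had the most calls. Across the 16637 transcripts the diet changes of gut correlated with those of fat body at a Pearson r of 0.62, of tubule at 0.61, of muscle at 0.54, of heart and neurons at 0.53 and of germ line at 0.45. Transcripts are not independent replicates, and these coefficients describe the arrays only. Called the same way in all 6 other tissues were 465 of the gut rises and 571 of the gut falls, while 68 transcripts were called in the gut and in no other tissue, 23 higher and 45 lower. Of these 68, the gut change differed from the mean of the other tissues for 38.

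Differences between tissues were tested directly. The diet change in the gut differed from that in fat body for 2341 transcripts (14.1%), from that in tubule for 2396 (14.4%) and from the mean of the other 6 tissues for 4121 (24.8%) (limma, adjusted p below 0.05). Against fat body the gut change was the higher one for 1003 transcripts (6.03%) and the lower one for 1338 (8.04%), and against tubule for 969 (5.82%) and 1427 (8.58%). Against the other 6 tissues it was the higher one for 2445 transcripts (14.7%) and the lower one for 1676 (10.1%). Of transcripts called in the gut, 872 rose and had a change above the mean of the others, and 674 fell and had a change below it. Another 229 rose with a change below that mean and 104 fell with a change above it, so that their gut response was the weaker one.

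CG45085/CG8026 had the clearest departure among the named messages. Its rise of 0.46 in the gut stood beside changes of -0.18 in fat body, -0.01 in tubule, -0.45 in germ line, -0.21 in heart, -0.21 in muscle and -0.67 in neurons. The gut change exceeded that of fat body by 0.64 ± 0.12 (adjusted p = 5.74e-05), that of tubule by 0.47 ± 0.12 (adjusted p = 0.00424) and the mean of the other 6 by 0.75 ± 0.09 (adjusted p = 2.86e-09). It passed the test downward in germ line, heart, muscle and neurons, and not in fat body (adjusted p = 0.0990) or tubule (adjusted p = 0.957).

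The other named rises differed in how far other tissues shared them. CG42305/CG17325 and CG42502/CG10570 rose in all 7 tissues, by 1.26 to 2.66 and 0.87 to 1.54 (log2), and their gut changes differed from the mean of the others by -0.00 ± 0.21 (adjusted p = 0.992) and -0.08 ± 0.13 (adjusted p = 0.689). In fat body CG42305/CG17325 was above the control probes in 6 of 6 DR pools and 1 of 6 AL pools. Its fitted change there, which enters that mean, is therefore not a measured size. CG45089/ND-MNLL exceeded the mean of the others by 0.48 ± 0.15 (adjusted p = 0.0108), with a rise in fat body (0.48) and falls in germ line (-0.30) and neurons (-0.86). The PIG-M message, CG42379/CG42380/CG42381/PIG-M, exceeded that mean by 0.25 ± 0.07 (adjusted p = 0.00821), and by 0.18 (adjusted p = 0.0573) after quantile normalization over all arrays. LanA, with its rise of 0.87 in the gut, rose by 1.39 in fat body and fell by 1.12 in neurons, and its gut change did not differ from the mean of the others by the test (0.57 ± 0.26, adjusted p = 0.0949). alpha-Spec, which rose by 0.55 in the gut, also rose in fat body (0.74), tubule (0.76), heart (0.45) and neurons (0.84). It was not called in germ line (-0.16) or muscle (-0.08). Its gut change did not differ from the mean of the others by the test (0.13 ± 0.16, adjusted p = 0.597).

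For mio, Wdr24, Fatp1 and NaPi-III, none of which was called in the gut, the gut change differed from that of fat body or tubule. mio changed by 0.03 in the gut and rose by 0.82 in fat body, a difference of -0.78 ± 0.17 (adjusted p = 0.000517). It was not called in tubule (0.22), germ line (-0.06), heart (0.01) or muscle (-0.10) either, and fell in neurons (-0.42). The gut change of mio did not differ from the mean of the other 6 by the test (-0.04 ± 0.13, adjusted p = 0.840). Wdr24 changed by -0.22 in the gut and rose by 0.40 in fat body, a difference of -0.63 ± 0.18 (adjusted p = 0.00756), or -0.49 (adjusted p = 0.0588) after quantile normalization over all arrays. Against the mean of the other 6 the gut change of Wdr24 did not differ by the test (-0.01 ± 0.13, adjusted p = 0.972). Fatp1 changed by 0.02 in the gut, against rises of 0.94 in tubule, 0.59 in fat body and 1.44 in neurons. Its gut change differed from that of tubule by -0.92 ± 0.22 (adjusted p = 0.00148) and from the mean of the other 6 by -0.56 ± 0.17 (adjusted p = 0.00966). NaPi-III changed by -0.09 in the gut and by -1.02 in tubule, a difference of 0.93 ± 0.28 (adjusted p = 0.0126), with an adjusted p of 0.0652 when gut and tubule arrays were fitted alone.

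For CG16974, CG45088/CG6191, fend and Sws1/Rad1, which fell in the gut, the gut change differed from that of the tubule. CG16974 changed by -0.70 in the gut and -0.19 (adjusted p = 0.0619) in the tubule, a difference of -0.51 ± 0.12 (adjusted p = 0.00145). Its gut change differed from the mean of the other 6 by -0.36 ± 0.09 (adjusted p = 0.00244). In fat body it fell by nearly as much (-0.59, adjusted p = 2.9e-08), and gut and fat body did not differ by the test (-0.11 ± 0.12, adjusted p = 0.650). CG16974 was also called lower in germ line, heart, muscle and neurons. CG45088/CG6191 changed by -0.36 in the gut, by 0.21 in tubule (adjusted p = 0.198) and by -1.13 in germ line. It was also called lower in fat body (-0.75), heart (-0.54), muscle (-0.35) and neurons (-0.57). The difference between gut and tubule for CG45088/CG6191 was -0.57 ± 0.18 (adjusted p = 0.0203), with an adjusted p of 0.112 after quantile normalization over all arrays. fend changed by -0.62 in the gut and by -1.59 in tubule, a difference of 0.97 ± 0.26 (adjusted p = 0.00576). It was also called lower in fat body (-0.82), germ line (-0.98) and muscle (-1.66), and not in heart (-0.28) or neurons (-0.16). Sws1/Rad1 changed by -1.03 in the gut and by -2.0 in tubule, where 3 of 6 DR pools were above the control probes. Its difference of 0.97 ± 0.34 (adjusted p = 0.0421) became 0.57 (adjusted p = 0.412) after quantile normalization over all arrays. Sws1/Rad1 was also called lower in germ line (-1.33), heart (-1.52), muscle (-1.74) and neurons (-2.39), and not in fat body (-0.48, adjusted p = 0.112).

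For 7 messages not called in the gut, the diet change there lay above the mean of the other tissues. It exceeded that mean for Rpp14a/CG7950 by 0.87 ± 0.19, Tfb5/CG31917 by 0.78 ± 0.26, CG42455/vnc by 0.73 ± 0.16, CG42374/Mettl5 by 0.64 ± 0.14, CG33995/CG44000/CG44001 by 0.52 ± 0.14, CG42372/CG30100 by 0.51 ± 0.17 and HDAC3 by 0.35 ± 0.11. Their adjusted p-values ran from 0.000318 (Rpp14a/CG7950) to 0.0240 (CG42372/CG30100), and CG42372/CG30100 had 0.0747 after quantile normalization over all arrays. None of these 7 differed between gut and fat body or between gut and tubule by the test over all arrays. Each was called lower in germ line, muscle and neurons, with changes in neurons of -0.70 (CG33995/CG44000/CG44001) to -2.39 (Tfb5/CG31917).

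**Figure D5:**
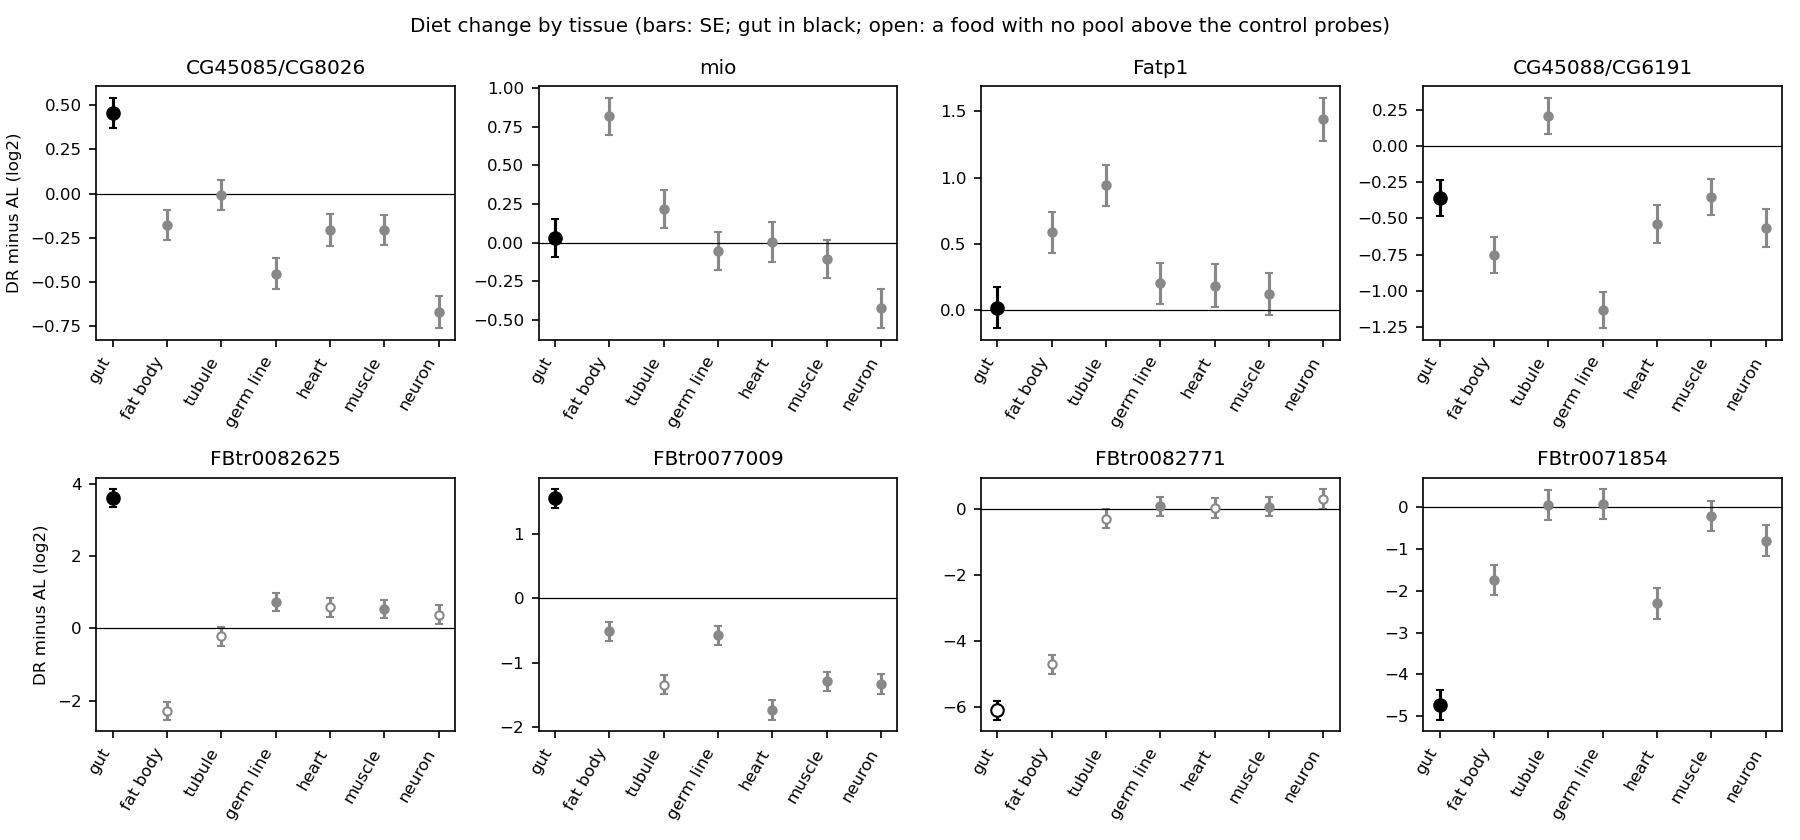
Change on DR food (log2, DR minus AL) in each of the 7 tissues for 4 named messages and 4 unnamed transcripts, with gut in black, the other tissues in grey and bars for the SE. Open points mark tissues where a food had no pool above the control probes, so that their values are fitted differences and not measured changes. CG45085/CG8026, FBtr0082625 and FBtr0077009 stand highest in the gut, FBtr0071854 lowest, and mio and Fatp1 lie near 0 there. mio also lies near 0 in germ line and heart.

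Among unnamed transcripts, the diet change of FBtr0082625 was higher in the gut than the mean of the other 6 tissues (adjusted p = 8.15e-18). Its rise of 3.60 in the gut stood beside fitted changes of 0.74 in germ line (adjusted p = 0.00852) and 0.53 in muscle (adjusted p = 0.0657). In germ line 5 of 6 DR pools and 3 of 6 AL pools were above the control probes, and in muscle 6 of 6 and 2 of 6. Both values thus lie near the background. In fat body it was above the control probes in 0 of 6 DR pools and 5 of 6 AL pools and was called lower on DR food. No tubule or neuron pool was above them, nor any heart AL pool, so that no size of a difference from these tissues is given. FBtr0077009 was at 11.91 to 12.57 (median 12.03) in gut DR pools and at 10.22 to 11.06 (median 10.51) in gut AL pools, a rise of 1.54 ± 0.15. It was called lower on DR food in all 6 other tissues, with changes of -1.74 in heart, -1.34 in neurons, -1.29 in muscle, -0.58 in germ line and -0.51 in fat body. In tubule no DR pool was above the control probes. In neurons 4 of 6 DR pools were, and in germ line 5 of 6, so that the changes there include pools at the background. The difference of the gut from the mean of the others passed the test (adjusted p = 2.55e-23). Every probe of FBtr0077009 separated the foods in the gut.

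In the opposite direction stood FBtr0082771 and FBtr0071854. FBtr0082771 was above the control probes in no gut DR pool (5.81 to 6.63) and at 11.90 to 12.66 in gut AL pools, which makes it at least 32.8-fold lower on DR food. In fat body it was likewise above them in no DR pool and in all 6 AL pools and was called lower. No tubule pool, no heart AL pool and no neuron AL pool was above them, so that a change with food could not be measured there. In germ line, where all but 1 pool were above them, it changed by 0.08 (adjusted p = 0.821). FBtr0071854 was at 8.53 to 9.63 (median 9.13) in gut DR pools and at 13.52 to 14.08 (median 13.86) in gut AL pools. Its gut change of -4.74 ± 0.36 was a 26.7-fold fall, against -2.30 in heart, -1.73 in fat body and -0.79 to 0.09 in the others, with a difference from the mean of the other tissues of -3.92 ± 0.39 (adjusted p = 6.8e-13). In neurons 3 of 6 DR pools were above the control probes for this transcript.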

How the data were processed

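Per the labels' protocols, the authors pulled down tagged ribosomes, amplified the RNA of each pool as a whole transcriptome (WTA2 kit) and put the Cy3-labelled product on one-colour NimbleGen arrays, with the order of these steps randomized. The table deposited by the authors gives linear intensities of 137098 probes (132998 of transcripts, 4100 random-sequence controls), and within a tissue its arrays share one distribution. For the scanner, the background correction and the release of the annotation, the step is not given in the sources used.

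Intensities were taken to log2 and averaged per transcript, with no filter. All 82 arrays entered 1 model of 14 tissue and food groups in limma 3.58.1 (R 4.3.3), with 68 residual degrees of freedom and two-sided moderated tests. P-values were adjusted by Benjamini and Hochberg over 16637 transcripts per contrast, and an adjusted p below 0.05 was a call. The model was tested on simulated data, and alternatives varied the arrays fitted, normalization, probe summary, filters, weights, covariate and pools. Where no pool of a food exceeded the 95th percentile of its control probes, the fold is a bound against that percentile.

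Names come from a gene table (Release 6 plus ISO1 MT, names alone). It pairs 16 transcripts with 1 gene, 28 with several and 16593 with none. All 44 are given, the 28 added after values were seen. Of unnamed transcripts, the 2 largest rises and 2 largest falls with separated pools above background are printed for the gut and, by extension after values were seen, for the difference from the other 6 tissues. Members and lists were chosen with earlier results of these data known. Of 531 list genes 12 were matched by name, and of 46 markers 0. Lists not described above matched 1 gene each (SuUR, NaPi-III and Fatp1) or none.

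Same-numbered DR and AL pools were checked for pairing. Their deviations from the group means correlated at -0.07 to 0.55, above 0.1 for 4 of 6 numbers. These values do not settle whether the numbers mark pairs. The labels do not say that a number marks a shared batch. The main fit therefore took no pairs, and a fit with the number as a block was an alternative.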

Additional observations from a re-analysis of the deposited data

Results flagged for a closer look

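In 6 of 122 groups of 6 pools that were examined, 1 pool stood far from the other 5, where chance gives about 1 in 20. DR pool 2 was the high one for mio at 11.72, AL pool 5 for kis at 13.29, AL pool 4 for CG42372/CG30100 at 12.09 and DR pool 6 for FBtr0077009 at 12.57 (mean log2 signal). DR pool 1 was the low one for CG33995/CG44000/CG44001 at 11.33 and for the gap between bright and dim transcripts at 4.67. None of the 4 named messages passed the test of food in the gut.

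The change on DR food differed between gut and another tissue by the test of the difference itself for 9 named messages. Against tubule the gut change was higher for Sws1/Rad1 by 0.97, fend by 0.97, NaPi-III by 0.93 and CG45085/CG8026 by 0.47, and the difference was -0.92 for Fatp1, -0.57 for CG45088/CG6191 and -0.51 for CG16974 (log2). Against fat body it was higher for CG45085/CG8026 by 0.64, and the difference was -0.78 for mio and -0.63 for Wdr24.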

How the results depend on the processing

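No gut call reversed its sign among the named messages under the 25 alternatives. Of 14 named calls, 3 (CG42305/CG17325, CG42502/CG10570 and CG16974) were kept under all of them, 3 were lost only against a minimum change of 1.2-fold, and 8 were lost under another alternative. Of the 30 messages not called, 7 passed under some alternative. The count of 5969 gut calls fell to 2095 when a change was tested against a minimum of 1.2-fold, and ranged from 5102 to 6201 with single pools left out (lowest without DR pool 1, highest without DR pool 5). It was 4307 without DR pools 1 and 2, an alternative chosen after seeing the data, 4399 with quantile normalization over all arrays and 7428 with array weights. With the replicate block, fitted on the gut arrays alone, it was 7121 (3530 higher, 3591 lower), against 6555 on those arrays without the block. With the block CG42512/CG32573, Rpp14a/CG7950 and moi/Tgs1, not called in the fit of all arrays, passed. Only 2 of 6 DR pools correlated best with the AL pool of their own number. The difference between gut and fat body was called for 1517 transcripts with quantile normalization over all arrays and for 3576 with the arrays of those tissues alone, against 2341, and the difference between gut and tubule for 1574 with quantile normalization, against 2396; the cause was not tested.

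With single pools left out, as added after seeing the data, the DR minus AL difference of the control probes' 95th percentile was -0.39 to -0.16 and of their median -0.32 to -0.22 (log2). That of the bright to dim gap was -0.19 to -0.09, of the median level -0.13 to -0.08, of the rise along the transcript 0.0237 to 0.0354 per kb and of the transcripts above controls 398.2 to 833.8. Without DR pool 2, the 95th percentile (-0.39) and the transcripts above controls (833.8) passed the exact permutation test before adjustment, and so did the rise along the transcript without DR pool 1 (0.0347) or AL pool 1 (0.0354). Depth is not defined for these arrays. Their number limits the precision, as does the background for 3095 transcripts above it in no gut pool.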
